A study of Mus musculus with 10 samples.

Results

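The peaks described here lie at the 2 ends of the assembled mouse autosomes in 6 CUT&Tag peak lists. A peak belonged to the pericentromeric side if it was on chromosomes 1 to 19 and started below 3.5 Mb, and to the subtelomeric side if it ended within 500 kb of the last peak end seen on its chromosome in any of the 6 lists. By this rule, which used positions only, 2744 pericentromeric and 1892 subtelomeric peaks were found, together 4636 of the 410642 autosomal peaks and of the 427705 peaks of all 6 lists. Each side covered 9.5 Mb, or 0.395% of the 2404 Mb of autosomal sequence counted from 3 Mb. The pericentromeric peak nearest the limit inside it began 44 bp below 3.5 Mb, with a fold of 8.15, and the nearest outside began 59 bp above, with a fold of 4.81. On the subtelomeric side the nearest peaks inside and outside the limit were 120 and 641 bp from it, with folds of 2.67 and 3.47.

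CUT&Tag cuts DNA next to an antibody bound to chromatin, so that sequenced fragments gather where the antigen lies. The antibody was against NPM1 in 4 groups and in both others against the trimethylated histone H3K4me3, with 1 library in each group. Macrophages of the heart of wild-type mice were taken at day 3 after a sham operation (NPM1) or after myocardial infarction, abbreviated MI (NPM1 and H3K4me3), and those of mice labelled NPM1 knockout at day 3 after MI (H3K4me3). Bone marrow-derived macrophages (BMDM) of wild-type mice were differentiated in 50 ng/ml M-CSF over 7 days and profiled for NPM1 untreated (0 h) or after 12 h of 20 ng/ml IL-4. The sources used here do not give the promoter that drives the deletion, the strain, the age or the number of mice per library. The other 4 libraries of the series are not analysed here.

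Mouse autosomes are telocentric: the centromere lies at the start of each chromosome, where the assembly has a placeholder, because the satellite arrays there could not be assembled. These arrays are packed as heterochromatin marked by H3K9 methylation. The assembled sequence that follows is rich in satellite remnants and segmental duplications, but also holds protein-coding genes. At the other end the last assembled bases border the telomere, a tandem repeat bound by the shelterin complex. NPM1 is an abundant nucleolar protein and histone chaperone, and nucleoli form around ribosomal DNA arrays that in mice lie near the centromeres of some autosomes. H3K4me3 is a mark of active promoters, which in mice often hold many CG dinucleotides.

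Promoter sequences of 4 genes in the end windows are shown because peaks at promoters there went with the density of CG in 4 lists, as given further on. Each is the 250 bases upstream of a RefSeq start site (assembly GRCm38.p6, which mm10 names), read 5′ to 3′ on the gene's strand, with each CG in capitals. Suv39h2 (pericentromeric side, chr2:3474987-3475236, minus strand) encodes a methyltransferase that marks pericentromeric heterochromatin, and Cpt1a (pericentromeric side, chr19:3323051-3323300, plus strand) encodes the enzyme that commits fatty acids to import into mitochondria. Noc2l (subtelomeric side, chr4:156235765-156236014, plus strand) encodes a nucleolar inhibitor of histone acetylation, and Ccr3 (subtelomeric side, chr9:124021721-124021970, plus strand) a chemokine receptor of eosinophils. The printed bases held 27, 14, 24 and 0 CG in that order. Peaks overlapped the 300-base promoters of the first 3 in 4 of 6 lists and that of Ccr3 in 0 of 6. These 4 were chosen after the values were seen.
Suv39h2: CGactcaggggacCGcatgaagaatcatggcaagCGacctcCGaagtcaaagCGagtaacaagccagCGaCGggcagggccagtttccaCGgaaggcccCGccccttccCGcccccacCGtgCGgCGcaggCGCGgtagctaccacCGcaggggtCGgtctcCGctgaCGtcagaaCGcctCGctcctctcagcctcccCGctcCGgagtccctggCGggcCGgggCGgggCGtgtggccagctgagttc
Cpt1a: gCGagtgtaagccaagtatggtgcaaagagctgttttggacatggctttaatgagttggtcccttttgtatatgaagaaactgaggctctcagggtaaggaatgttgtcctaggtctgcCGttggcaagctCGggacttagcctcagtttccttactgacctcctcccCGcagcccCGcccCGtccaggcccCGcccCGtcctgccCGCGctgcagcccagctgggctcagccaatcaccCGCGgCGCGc
Noc2l: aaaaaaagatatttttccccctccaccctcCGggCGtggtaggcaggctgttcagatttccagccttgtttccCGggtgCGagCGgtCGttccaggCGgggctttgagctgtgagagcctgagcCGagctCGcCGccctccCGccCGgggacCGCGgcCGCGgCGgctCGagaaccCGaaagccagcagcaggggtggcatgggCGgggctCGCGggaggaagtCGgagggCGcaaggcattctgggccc
Ccr3: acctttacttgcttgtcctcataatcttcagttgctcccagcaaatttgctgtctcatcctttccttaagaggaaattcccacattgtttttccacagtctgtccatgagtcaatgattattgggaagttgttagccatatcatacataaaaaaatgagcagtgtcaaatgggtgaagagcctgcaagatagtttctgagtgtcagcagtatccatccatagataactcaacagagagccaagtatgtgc

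Depth and labels were checked over whole lists before the ends were read. The lists held 51269 to 99983 autosomal peaks, and the genome-wide background computed from their values ranged from 1.29 reads per position (sham heart NPM1) to 4.18 (IL-4 BMDM NPM1). Of 10 macrophage marker genes, 9 or 10 had a peak at a gene end in the MI and IL-4 lists of both antibodies, 1 in the sham heart list and 0 in the untreated BMDM list. The heart muscle, fibroblast and endothelial lists had at most 2 of 8, 3 of 6 and 3 of 5 genes with such a peak. Over all 20560 autosomal genes the share with such a peak was 11.4% in sham heart and 6.58% in untreated BMDM. It was 52.9% in MI heart NPM1, 53.4% in IL-4 BMDM, 59.3% in wild-type H3K4me3 and 63.8% in the knockout. The macrophage marker counts in sham heart and untreated BMDM were thus near the share of all genes, and counts of so few genes do not identify a cell type. The list labelled NPM1 knockout held an H3K4me3 peak at an end of Npm1 with a fold of 7.97, against 7.60 in its wild-type counterpart. A peak list does not show whether the gene was deleted. With 1 library per group no difference between groups could be tested. Intervals below are exact 95% intervals (Poisson for counts, Clopper-Pearson for shares) and cover counting error only. They treat peaks as independent, although peaks clustered on some chromosomes, so they are likely too narrow. Whether 2 intervals overlap is therefore a description and no test of a difference between groups.

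On the pericentromeric side peaks were denser than on the autosomes as a whole in all 6 lists. The sham heart NPM1 list held 468 such peaks, 2.11 times the autosomal mean density (interval 1.93 to 2.31), and the MI heart NPM1 list 455, 1.46 times (1.33 to 1.60). Untreated BMDM had 384 peaks and a ratio of 1.90 (1.71 to 2.09), and IL-4 BMDM 642 peaks and a ratio of 1.62 (1.50 to 1.76). For H3K4me3 the wild-type MI heart list had 485 peaks at a ratio of 1.70 (1.55 to 1.85) and the knockout list 310 at 1.51 (1.34 to 1.68). Both lists with the lowest background, sham heart and untreated BMDM, had the highest ratios, and the intervals of sham and MI heart NPM1 did not overlap. With each list limited to its 51269 peaks of lowest p, the ratios were 2.08 and 1.73 in sham and MI heart and 1.90 and 1.81 in untreated and IL-4 BMDM, with overlapping intervals in both pairs. For H3K4me3 the gap widened at equal list length, to 2.04 (1.85 to 2.24) in the wild type and 1.52 (1.36 to 1.70) in the knockout, and the intervals no longer overlapped. Among peaks with −log10 q of 5 or more the intervals were apart in all 3 pairs, at 5.48 and 2.73 in sham and MI heart, 4.39 and 2.16 in untreated and IL-4 BMDM and 3.05 and 1.73 in wild-type and knockout H3K4me3. The pericentromeric counts behind these ratios were 124 and 148, 84 and 192, and 200 and 194 in the same order. Over all autosomes 5726 and 13722, 4845 and 22521, and 16603 and 28395 peaks passed this limit. These ratios thus also depend on how many peaks elsewhere passed it, which differed widely within each pair. With 1 library per group, intervals that lie apart do not show a difference between the labelled states.

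The subtelomeric side was closer to the autosomal mean, with intervals above 1 in all lists but sham heart. Its ratio was 1.10 in sham heart (243 peaks, 0.964 to 1.24), 1.13 in MI heart (351 peaks, 1.01 to 1.25), 1.19 in untreated BMDM (242 peaks, 1.05 to 1.35) and 1.17 in IL-4 BMDM (462 peaks, 1.06 to 1.28). For H3K4me3 it was 1.13 in the wild type (322 peaks, 1.01 to 1.26) and 1.32 in the knockout (272 peaks, 1.17 to 1.49). In each list the subtelomeric ratio was below the pericentromeric one, though in the knockout the intervals of both sides overlapped. Among peaks with −log10 q of 5 or more the subtelomeric ratio was 1.94 in sham heart, 1.75 in MI heart, 1.98 in untreated BMDM and 1.53 in IL-4 BMDM. For H3K4me3 it was 1.57 in the wild type and 1.60 in the knockout at this limit. All these lower bounds lay above 1. The median over the 19 chromosomes, each against its own mean, was below 1 in 3 lists, at 0.907 in sham heart, 0.930 in MI heart and 0.688 in the knockout, and above 1 in the other 3, at 1.18 in untreated BMDM, 1.02 in IL-4 BMDM and 1.15 in wild-type H3K4me3. On the pericentromeric side the same medians ran from 1.37 to 1.89.

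The densest 100 kb of the pericentromeric window lay in its first 200 kb in 5 lists, and between 300 and 400 kb, at 1.87 times the autosomal mean, in the knockout list. In the first 100 kb the density was 3.23 times the autosomal mean in sham heart, 2.99 in untreated BMDM, 2.06 in wild-type H3K4me3, 1.92 in IL-4 BMDM, 1.60 in the knockout and 1.57 in MI heart. From 100 to 200 kb the ratios were 1.43 to 2.91, and from 400 to 500 kb 0.971 to 1.36. In the next 500 kb, outside the window, the ratio was between 0.992 (untreated BMDM) and 1.31 (knockout). On the subtelomeric side the last 100 kb stood at 1.12 to 1.88 and the next 500 kb at 0.987 to 1.33, so that 4 of the 6 lists were denser there than in the window itself.

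**Figure D1:**
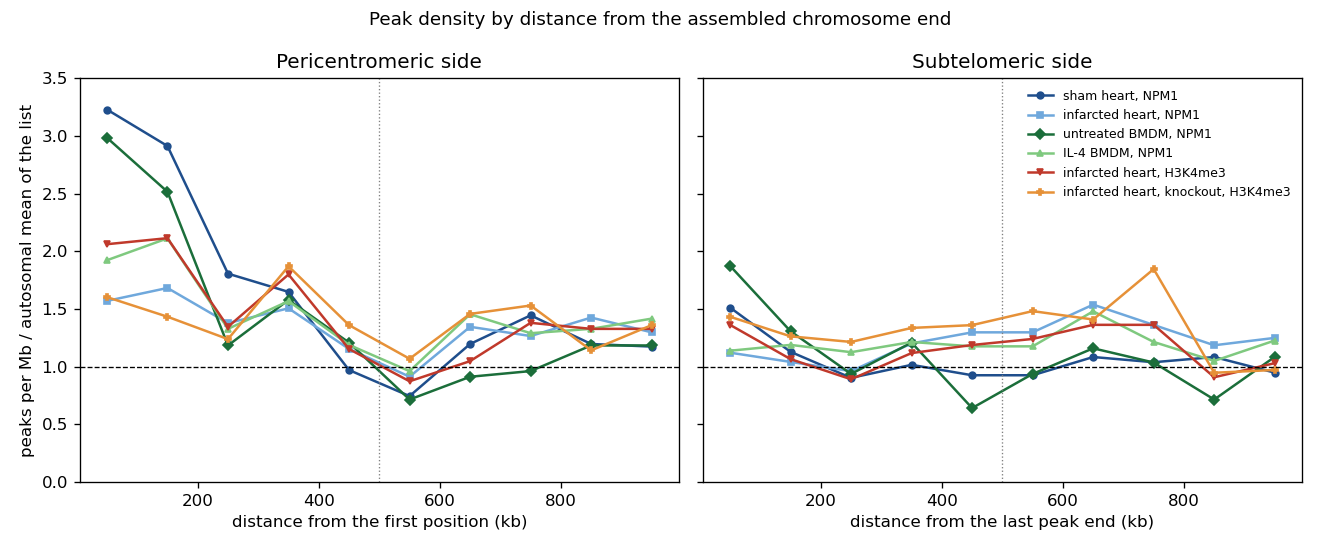
Peaks per Mb relative to the autosomal mean of the same list (y axis) in 100 kb steps from the first position at 3 Mb (left) and from the last peak end (right), 1 line per list; the dotted line is the 500 kb limit and the dashed line the autosomal mean. On the left the sham heart and untreated BMDM lists start at 3.23 and 2.99 and all lists are at 0.971 to 1.36 by 400 to 500 kb; on the right the last 100 kb lies at 1.12 to 1.88.

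Chromosomes differed widely within each list. On the pericentromeric side, chromosomes 11, 9 and 4 held the most peaks over the 6 lists (319, 255 and 217) and were above their own mean in every list, whereas chromosomes 1, 15 and 13 held the fewest (24, 62 and 92), and chromosomes 1 and 15 were above their mean in 0 of 6 lists. In both BMDM lists chromosome 14 held the most. On the subtelomeric side chromosomes 7, 4 and 13 held the most over the 6 lists (229, 210 and 153) and chromosomes 3, 17 and 12 the fewest (32, 41 and 43). These sums weigh long lists more, and the untreated BMDM list went another way: chromosomes 5, 13 and 10 held the most there (23, 20 and 19), chromosome 4 was at 0.924 times its mean and chromosome 7, at 0.261, was the lowest. The number of chromosomes above their own mean was 12 to 17 of 19 on the pericentromeric side and 8 to 13 of 19 on the subtelomeric side.

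The lists filled 2 of the ends very differently. At the start of chromosome 14, the home of a cluster of predicted genes, the IL-4 BMDM list had 74 peaks, untreated BMDM 52, sham heart 49, MI heart 20, wild-type H3K4me3 14 and the knockout 1. The 3 densest NPM1 lists there were at 3.75 to 4.33 times the chromosome mean, and the H3K4me3 lists at 1.12 and 0.14. At the end of chromosome 7, where the cell cycle gene Ccnd1 and the lysosomal channel gene Tpcn2 lie, IL-4 BMDM had 74 peaks, MI heart 59, both H3K4me3 lists 34, sham heart 25 and untreated BMDM 3. These 2 ends were singled out after the counts were seen. Leaving out the chromosome with the most members changed the subtelomeric ratio of MI heart from 1.13 to 0.999.

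Subtelomeric peaks followed genes in 5 of the 6 lists. Over the 19 chromosomes, the Spearman correlation of peaks with protein-coding genes in the window was 0.59 in sham heart, 0.70 in MI heart, 0.72 in IL-4 BMDM, 0.73 in wild-type H3K4me3 and 0.86 in the knockout. In untreated BMDM it was -0.29, and on the pericentromeric side it lay between -0.12 and 0.41. These are descriptions over 19 windows of the same libraries.

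Chromosomes 12, 15, 16, 18 and 19, which carry ribosomal DNA in many mouse strains, were compared with the other 14 because NPM1 is nucleolar. Their pericentromeric NPM1 ratio was 1.82 (1.48 to 2.21) against 2.23 (2.0 to 2.47) in sham heart and 1.48 (1.22 to 1.77) against 1.46 (1.31 to 1.62) in MI heart. It was 1.76 (1.42 to 2.17) against 1.95 (1.73 to 2.19) in untreated BMDM and 1.68 (1.44 to 1.96) against 1.61 (1.47 to 1.76) in IL-4 BMDM. In each NPM1 list the intervals overlapped. The sources used here name no strain, so which chromosomes carry the arrays in these mice is not known. The intervals were apart in 1 case, the subtelomeric side of the knockout H3K4me3 list, at 0.750 (0.530 to 1.03) against 1.52 (1.33 to 1.73).

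**Figure D2:**
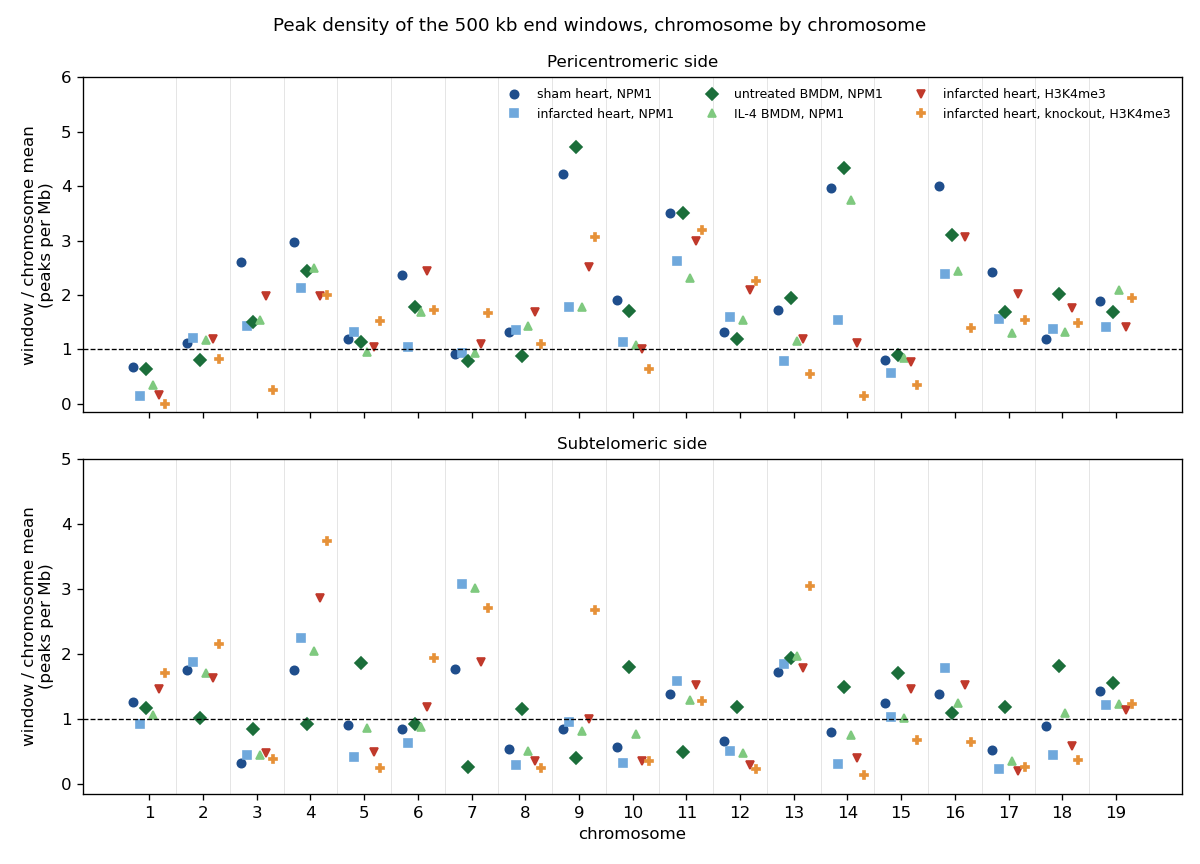
Density of the 500 kb window divided by the mean density of the same chromosome (y axis) for chromosomes 1 to 19 (x axis), 1 marker per list, pericentromeric side above and subtelomeric side below; the dashed line is the chromosome mean. Chromosomes 9, 11, 14 and 16 reach 3 to 5 times their mean on the pericentromeric side in some lists and chromosome 1 stays below 1 in all 6; on the subtelomeric side chromosomes 4 and 7 reach 3.74 and 3.08 in single lists but lie at 0.924 and 0.261 in untreated BMDM.

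In 5 of 6 lists pericentromeric peaks ranked lower by fold than the median peak, and in all 6 they ranked higher by −log10 p. The fold is the authors' value per peak and was used only to rank peaks within a list. The median pericentromeric peak stood at the 29.9th percentile of its list by fold in sham heart, 46.2 in MI heart, 36.9 in untreated BMDM, 40.5 in IL-4 BMDM, 46.7 in wild-type H3K4me3 and 40.0 in the knockout. The median of all peaks was at 50.0 to 50.1 in 5 lists and, because of tied folds, at 46.2 in MI heart, the same as its pericentromeric peaks. Ranked by −log10 p, which grows with the number of reads, the same peaks stood at 66.5, 64.4, 56.9, 56.3, 66.8 and 58.5, against 46.9 to 52.9 for all peaks. The median background around these peaks was 1.32 times the genome-wide one in sham heart, 1.17 in MI heart, 1.84 in untreated BMDM, 1.25 in IL-4 BMDM, 1.39 in wild-type H3K4me3 and 3.23 in the knockout. Over all peaks of the lists it was 0.999, 1.10, 1.13, 1.05, 1.10 and 1.60, so that the difference was smallest in MI heart. In 64.6% to 78.4% of the pericentromeric peaks per list this background fell on steps of 0.02, against 48.7% to 72.6% of all peaks. Counts of 200 bp reads over 10 kb would fall on such steps. Such a count holds the reads of the peak and its neighbours, so background, fold and −log10 p are not independent values. The median width of pericentromeric peaks was 260 bp in sham heart and 396 bp in the knockout, against 233 and 434 bp over all peaks of those lists.

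Subtelomeric peaks stood above the middle by both rankings. By fold the median subtelomeric peak was at percentile 53.9 in sham heart, 60.4 in MI heart, 51.7 in untreated BMDM, 56.1 in IL-4 BMDM, 60.6 in wild-type H3K4me3 and 61.6 in the knockout. By −log10 p the range was 56.6 to 60.3. Among subtelomeric peaks the share with −log10 q of 5 or more was 18.1% in sham heart and 65.8% in the knockout, against 10.2% and 54.5% of all peaks of those lists, and among pericentromeric peaks it was 26.5% and 62.6%.

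The local background, which as computed can hold the reads of the peaks themselves, was highest on chromosomes 9 and 11. On chromosome 9 the median local background of the pericentromeric peaks was 90.3 times the genome-wide one in sham heart, 69.1 in MI heart, 297 in untreated BMDM, 86.5 in IL-4 BMDM, 70.7 in wild-type H3K4me3 and 40.5 in the knockout. The highest summit there held 5498 reads, in untreated BMDM. On chromosome 11 the factors were 26.6, 20.7, 28.0, 19.3, 22.1 and 12.1 in the same order. The start of chromosome 11 holds Sfi1, a gene for a centrosome protein, and a peak at an end of Sfi1 in untreated BMDM had 96 reads at its summit and a fold of 1.87, at the 0.0390th percentile of its list by fold. At the same end the Sfi1 peak had folds of 1.83 (sham heart), 1.84 (MI heart), 1.70 (IL-4 BMDM) and 1.63 (wild-type H3K4me3), whereas the strongest knockout peak, with 7.83, lay at the other end of the gene. Outside chromosomes 9 and 11 the largest factor was 8.51 in sham heart and 2.02 to 3.22 in the other wild-type lists, whereas the knockout also had 36.5 on chromosome 10. Whether reads from repeated copies were placed at these ends was not tested, since no source used here gives the handling of such reads.

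**Figure D3:**
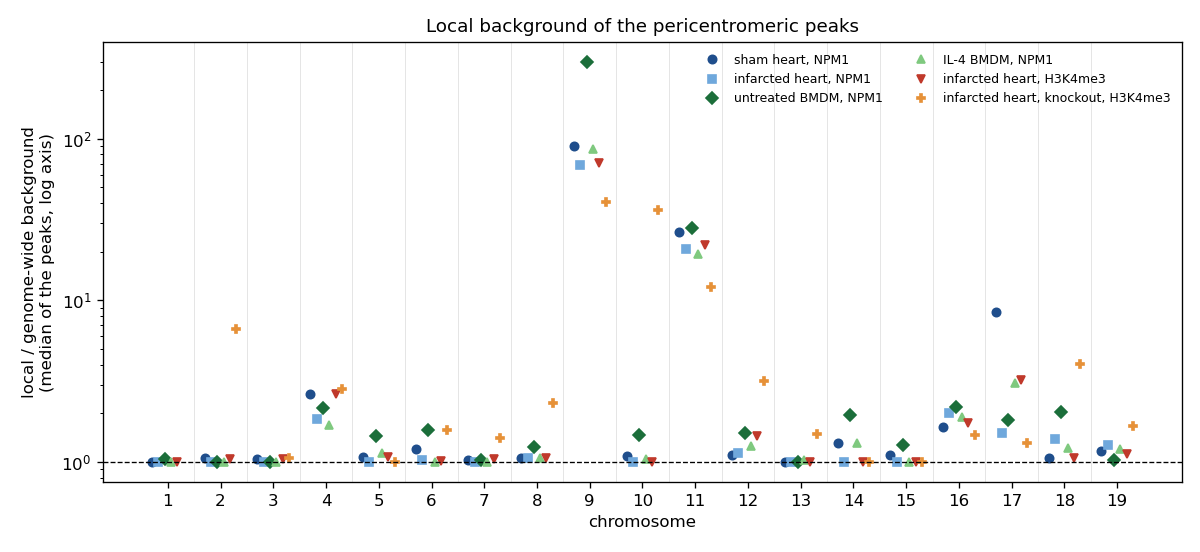
Median local background of the pericentromeric peaks of each chromosome divided by the genome-wide background of the list (y axis, log scale), for chromosomes 1 to 19 (x axis), 1 marker per list; the dashed line is a ratio of 1. Chromosome 9 lies at 40.5 to 297 and chromosome 11 at 12.1 to 28.0, and most other chromosomes lie near 1; the knockout list has no peak on chromosome 1.

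The same pericentromeric regions recurred across lists. When peaks of the 6 lists that overlapped by at least 1 bp were merged, 87 of 1286 pericentromeric regions (6.77%) were held by all 6 lists, against 30 of 975 subtelomeric regions (3.08%) and 2071 of 232501 autosomal regions (0.891%). Regions held by 1 list made up 56.7%, 61.3% and 63.7% in the same order. Peaks of both antibodies met in 28.5% of pericentromeric, 23.4% of subtelomeric and 22.3% of all regions. Of the 87 pericentromeric regions, 24 were on chromosome 9, between 3000113 and 3259052, 17 on chromosome 11, between 3100115 and 3197131, 10 on chromosome 16 and 7 each on chromosomes 4 and 17. The 17 on chromosome 11 had a median fold percentile of 1.76, those on chromosome 9 of 49.5 and those on chromosome 17 of 87.5.

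**Figure D4:**
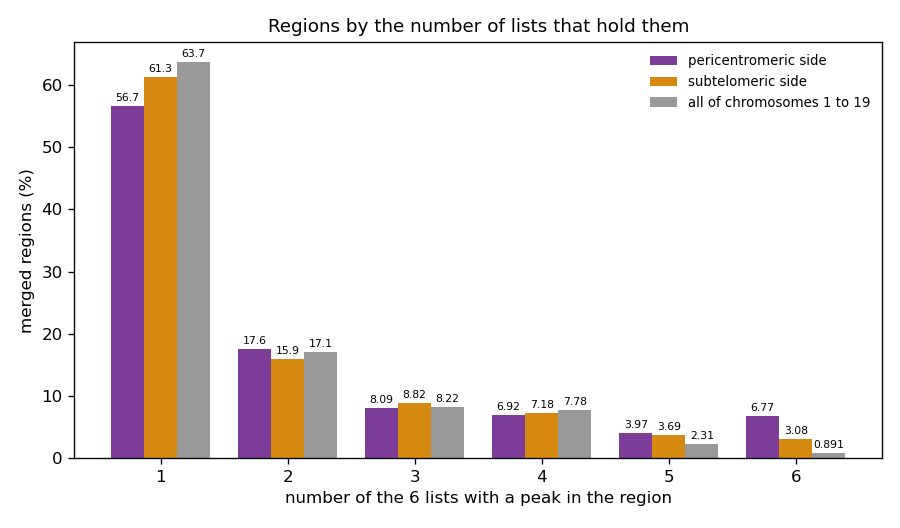
Percent of merged regions (y axis) by the number of the 6 lists with a peak in them (x axis), for the pericentromeric side, the subtelomeric side and all of chromosomes 1 to 19. Regions held by all 6 lists make up 6.77%, 3.08% and 0.891%.

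Peak by peak, the share that overlapped a peak of any of the other 5 lists was above that of the whole list on the pericentromeric side. In sham heart it was 326 of 468 (69.7%, 65.3 to 73.8), against 54.9% of all autosomal peaks of that list. The shares were 74.5% against 66.6% in MI heart, 67.2% against 49.7% in untreated BMDM and 70.9% against 66.4% in IL-4 BMDM. For H3K4me3 they were 79.8% against 70.3% in the wild type and 80.6% against 70% in the knockout. All 6 lower bounds lay above the share of the whole list. Subtelomeric shares were 58.8%, 72.1%, 55.8%, 70.3%, 74.8% and 72.4% in the same order of lists. The lower bound there lay above the whole list's share in MI heart alone (67.1%), by less than 1 percentage point.

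Between the labelled states the pericentromeric overlap was again above that of whole lists. Of the sham heart NPM1 peaks, 43.2% of the pericentromeric and 36.6% of the subtelomeric ones overlapped an MI heart NPM1 peak, against 29.1% of all. In the reverse direction the shares were 42.0% and 24.8%, against 20.2%. Of untreated BMDM peaks, 58.9% and 51.7% overlapped an IL-4 BMDM peak, against 42.9% of all, and of IL-4 BMDM peaks 33.8% and 26.6% overlapped an untreated one, against 21.4%. Counts and depth differ between lists, so a share of 1 list in another also depends on the length of the other.

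For H3K4me3, 45.8% of pericentromeric and 55.9% of subtelomeric wild-type peaks overlapped a knockout peak, against 41.1% of all. In the knockout list 69.0% and 55.5% overlapped a wild-type peak, against 47.9%. Within wild-type MI heart macrophages, 54.3% and 45.6% of NPM1 peaks overlapped an H3K4me3 peak, against 38.8% of all, and 53.0% and 51.9% of H3K4me3 peaks overlapped an NPM1 peak, against 43.1%. At either end both antibodies shared more of their peaks than in whole lists, with counting intervals that excluded the whole list's share in each of these 4 cases. Of these NPM1 peaks, 95 of 455 pericentromeric and 31 of 351 subtelomeric ones lay in regions of all 6 lists. For H3K4me3 it was 103 of 485 and 32 of 322. The overlap without such regions was not computed, so these shares do not separate sharing by both antibodies from regions that every list holds.

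Among the pericentromeric regions of all 6 lists, the one with the highest fold in every list was chr12:3109750-3110189 (mm10), with no protein-coding gene end within 1 kb. Its fold was 41.8 in sham heart, 43.1 in MI heart, 46.5 in untreated BMDM, 42.8 in IL-4 BMDM, 41.4 in wild-type H3K4me3 and 43.8 in the knockout. Its summit held 1763, 1838, 2603, 2367, 2283 and 1527 reads in that order. These folds were far above the list medians of 2.97 to 3.83. They also lay near 50, the most a fold can reach if the background counts 200 bp reads over the 10 kb around a peak. Near that limit, like folds are no measure of like enrichment between lists. Relative to the genome-wide background the summits differed more between lists, at 1367 times in sham heart, 607 in MI heart, 1987 in untreated BMDM, 566 in IL-4 BMDM, 782 in wild-type H3K4me3 and 613 in the knockout. The next region, chr13:3372761-3373728, had folds of 14.2 to 21.5, and chr2:3050019-3050486 folds of 7.45 (knockout) to 21.9 (wild-type H3K4me3). The regions chr9:3258483-3259052, chr6:3050365-3051101 and chr6:3200727-3201691 had folds of 6.05 to 19, 9.18 to 14.6 and 8.21 to 13.4. None of these 6 regions had a protein-coding gene end within 1 kb.

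On the subtelomeric side the regions of all 6 lists were mostly the very last peaks. A peak was called terminal if it ended within 1 kb of the last peak end of its chromosome, a definition added after the values were seen. Since the side is measured from the last peak end, each chromosome has such a peak in at least 1 list by construction. Terminal peaks were present in 6 lists on 17 chromosomes, in 5 lists on chromosome 15 and in 1 list on chromosome 9. Their end positions differed between lists by at most 24 bp, except on chromosome 4, with 954 bp. They accounted for 17 of the 30 subtelomeric regions of all 6 lists. Without them 13 of 955 regions (1.36%) remained in all 6, and the density ratio was 1.01 in sham heart, 1.06 in MI heart and wild-type H3K4me3, 1.11 in untreated BMDM, 1.12 in IL-4 BMDM and 1.23 in the knockout.

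Terminal peaks were among the strongest of each list. The one of chromosome 7, chr7:145340867-145341486, held 4353 reads at its summit in sham heart, 5301 in MI heart, 5061 in untreated BMDM, 6861 in IL-4 BMDM, 4161 in wild-type H3K4me3 and 4110 in the knockout. It had the lowest p of the whole list in 5 of 6 lists, and ranked 3 in untreated BMDM. The 3 highest median fold percentiles belonged to the last peaks of chromosome 19 (chr19:61331183-61331664), with folds of 42.0 to 43.3, chromosome 12 (chr12:120028598-120029109), with 41.4 to 42.9, and chromosome 3 (chr3:159939293-159939786), with 41.0 to 42.7. The one of chromosome 3 lay within 1 kb of an end of Wls, which encodes a protein needed to secrete Wnt ligands. The last peaks of chromosomes 1 (chr1:195371552-195372064), 16 (chr16:98107263-98107867) and 11 (chr11:121982205-121982658) had folds of 40.0 to 43.4, 39.9 to 42.9 and 38.9 to 42.8. These folds lay near the same limit of 50, so their likeness between lists is no measure of like enrichment.

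Not every chromosome ended in a strong peak. The last peak of chromosome 15 had folds of 4.58 to 10.9 and 15 to 28 reads, and that of chromosome 9, in the MI heart NPM1 list alone, a fold of 3.22 and 12 reads. The terminal fold was 25 or more on 13 or 14 chromosomes per list. Of the 20 peaks of highest fold in each list, 8 were terminal and 1 was the chromosome 12 region of the pericentromeric side, and of the 20 with the lowest p, 60% to 70% lay on either side.

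Read counts ordered the chromosomes alike in every list. The Spearman correlation of terminal read counts over 17 or 18 chromosomes was 0.99 or more for every pair of lists, NPM1 with H3K4me3 and wild type with knockout included. Relative to the genome-wide background, the median terminal summit was 936 times in sham heart, 1064 in untreated BMDM, 396 in MI heart, 464 in IL-4 BMDM, 384 in wild-type H3K4me3 and 426 in the knockout. The 2 lists with the lowest background and the fewest gene-end peaks had the highest values. What these libraries would give without a specific antibody is not analysed here, and whether the terminal peaks follow the antigen was not tested.

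**Figure D5:**
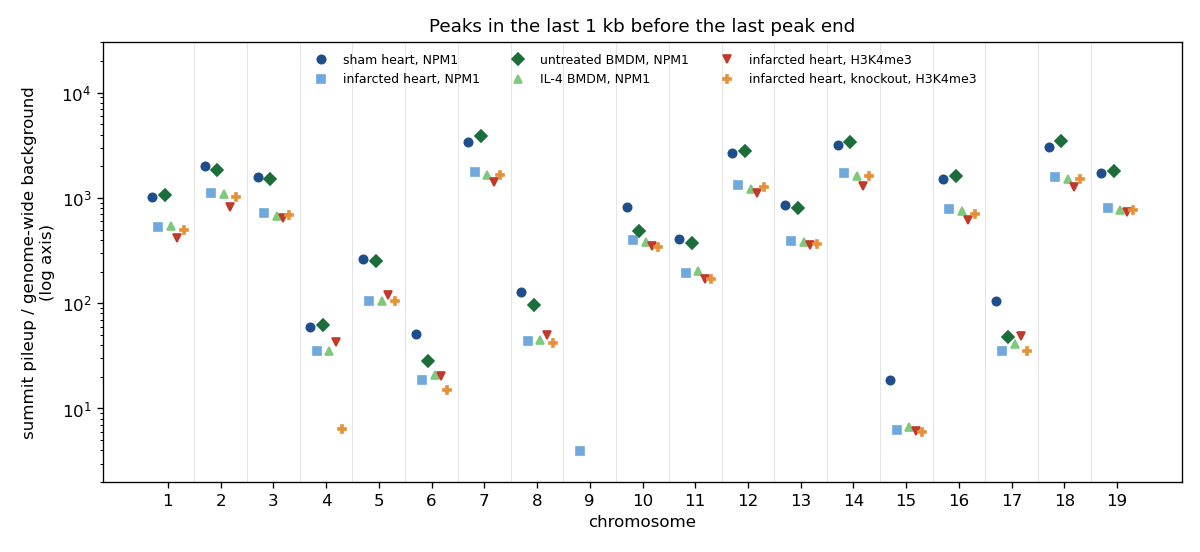
Reads at the summit of the terminal peak divided by the genome-wide background of the list (y axis, log scale), for chromosomes 1 to 19 (x axis), 1 marker per list. The 6 lists keep nearly the same order of chromosomes, with chromosomes 7, 14, 12 and 18 high and 15 and 9 low, and the sham heart and untreated BMDM lists lie highest on most chromosomes.

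Genes with an end in the windows were counted next. Of 72 protein-coding genes on the pericentromeric side, 9 had a peak within 1 kb of an end in sham heart (12.5%, against 11.4% of all 20560 autosomal genes), 36 in MI heart (50%, against 52.9%), 7 in untreated BMDM (9.72%, against 6.58%) and 42 in IL-4 BMDM (58.3%, against 53.4%). For H3K4me3 it was 43 in the wild type (59.7%, against 59.3%) and 49 in the knockout (68.1%, against 63.8%). Of 133 subtelomeric genes the counts were 17, 67, 5, 74, 71 and 78 in the same order of lists, or 12.8%, 50.4%, 3.76%, 55.6%, 53.4% and 58.6%. All 12 counting intervals included the share of all genes, so that genes with an end in a window had a gene-end peak about as often as all genes. Either end of such a gene was counted, also one beyond the window. The share of pericentromeric peaks that lay at gene ends was below that of all peaks of the list. No intervals were computed for these shares. The shares were 1.92% against 4.15% in sham heart, 9.45% against 15.3% in MI heart and 1.82% against 2.58% in untreated BMDM. They were 6.54% against 12.2% in IL-4 BMDM, 9.69% against 20.8% in wild-type H3K4me3 and 16.5% against 27.8% in the knockout. The untreated BMDM share rests on 7 of 384 peaks, too few to read a lower share there. Subtelomeric shares lay above those of all peaks except in untreated BMDM, at 2.07%. They were 6.58% in sham heart, 19.4% in MI heart, 16.02% in IL-4 BMDM, 26.7% in wild-type H3K4me3 and 32.4% in the knockout.

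Gene-end peaks were counted by the lists that held them. On the pericentromeric side 23 of 72 genes, and on the subtelomeric side 44 of 133, had a peak in both MI heart lists, the knockout list and the IL-4 BMDM list and none in sham heart or untreated BMDM. These were 31.9% and 33.1%, against 33.8% of all 20560 genes. A further 3 and 11 had the same 4 and 1 of the latter, and 2 and 3 genes had all 6, or 2.78% and 2.26% against 1.07% of all genes. The genes of all 6 lists were Sfi1 and Nmt2 on the pericentromeric side and Wls, Gm21814 and Gm45871 on the subtelomeric side. No peak in any list was found at 13 and 42 genes, or 18.1% and 31.6% against 24.1%. Each of these counting intervals included the share over all genes, so the patterns at the ends were near those of the whole lists. All 3 vomeronasal receptor genes of the pericentromeric side and all 6 vomeronasal and 5 olfactory receptor genes of the subtelomeric side lacked a peak in every list. Over all autosomes 1.14% to 9.69% of vomeronasal and 1.09% to 6.07% of olfactory receptor genes had one, so counts of 0 in so few genes are near the background. Folds and q also vary with the depth of a list, so their size in 2 lists is no measure of a difference at a gene.

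Pericentromeric genes with peaks in 4 lists included several with roles in chromatin and metabolism, named here by role after their values were seen. Suv39h2 had folds of 4.71 in MI heart NPM1, 4.44 in IL-4 BMDM, 6.73 in wild-type H3K4me3 and 10.4 in the knockout. The strongest knockout peak at Dclre1c, which encodes the Artemis nuclease of antibody gene rearrangement, was the same peak, since the ends of both genes lie within 1 kb of each other. Cpt1a had 5.31, 4.03, 4.77 and 5.83 in the same lists, and Insr, the insulin receptor gene, 4.65, 3, 6.73 and 10.3. Rab10, which encodes a GTPase of membrane traffic, had 7.83, 8.33, 5.65 and 7.96.

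By −log10 q, the strongest gene-end peaks of genes with an end in the pericentromeric window were at other genes. In MI heart NPM1 and IL-4 BMDM the first was at Ppp6r3, a regulatory subunit of protein phosphatase 6, with folds of 10.8 and 9.05. That peak lies at the far end of the gene, beyond the window, and is not a pericentromeric peak by the rule. Next came Nmt2 in MI heart (−log10 q 38.2) and Rpp38 with Acbd7 in IL-4 BMDM (35.8). In the wild-type and knockout H3K4me3 lists the first was at Drg1, a translation-linked GTPase, with 11.3 and 11.4. Nmt2, which encodes a protein myristoyltransferase, had folds of 9.36 in MI heart and 8.06 in IL-4 BMDM but 3.06 and 3.46 in sham heart and untreated BMDM, where −log10 q was 0.90 and 1.40. Rpp38, which encodes a subunit of ribonuclease P, and its neighbour Acbd7 shared 1 peak, of fold 8.33 in MI heart and 9.23 in IL-4 BMDM. The knockout list also had strong peaks at Cul2, a ubiquitin ligase scaffold (11.7), and Insr.

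Predicted genes, which have Gm symbols, were among those with pericentromeric gene-end peaks in the lists of lowest background. In sham heart 5 of the 10 Gm genes had one (18.7% to 81.3%, against 20.9% of all Gm genes) and in untreated BMDM 4 of 10 (12.2% to 73.8%, against 17.3%), so both intervals included the share over all Gm genes. Gm5795 and Gm38690 on chromosome 14 had folds of 3.39 and 3.30 in untreated BMDM, and Gm2888 and Gm10340, also on chromosome 14, 4.10 and 3.93 in sham heart. Clustered predicted genes can be near-identical copies. No source used here says how reads were divided among copies, and this was not tested, so values at these genes are reported as uncertain.

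At the subtelomeric end, genes of immune cells and growth control were among those with peaks, again named by role. Csf2ra, the GM-CSF receptor subunit gene, had folds of 3.76 in sham heart, 4.30 in MI heart, 5.74 in IL-4 BMDM, 3.69 in wild-type H3K4me3 and 7.30 in the knockout, and 0 peaks in untreated BMDM. Nckap1l, which encodes an actin regulator of blood cells, had 7.69, 6.37, 6.68 and 9.71 in MI heart, IL-4 BMDM, wild-type H3K4me3 and the knockout. Ccnd1, the gene of the cell cycle regulator cyclin D1, had 3.23, 3.13, 4.15 and 6.79 in the same 4 lists, and Tpcn2 4.15, 5.29, 4.14 and 5.09. Prdx3, which encodes a mitochondrial peroxidase, had 5.29, 5.11, 8.15 and 13.4 in these lists. Tpcn2 and Prdx3 also had a peak in sham heart, with folds of 3.38 and 3.5.

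The chemokine receptor gene Ccr1l1, at the end of chromosome 9, had a gene-end peak in MI heart NPM1 (fold 2.48), IL-4 BMDM (3.67) and the knockout H3K4me3 list (7.11). Ccr2, the receptor that recruits monocytes, and Ccr3 had no gene-end peak in any list. The interferon-induced gene Isg15 had one in the knockout alone, with a fold of 1.79. Cd34, a marker of progenitor and endothelial cells, had one in the H3K4me3 lists, with folds of 3.06 and 9.64.

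By −log10 q the first subtelomeric gene was Wls in every list, through the terminal peak of chromosome 3. At Gm21814 on chromosome 6 the strongest peak was terminal too in the 5 wild-type lists, with folds of 23.8 in sham heart, 14.1 in MI heart, 16.4 in untreated BMDM, 17.0 in IL-4 BMDM and 15.3 in wild-type H3K4me3, and in the knockout it lay at the other end of the gene. Polr3k, which encodes a subunit of RNA polymerase III, had peaks at both ends: at the lower coordinate the strongest peak had folds of 5.46 in MI heart, 9.57 in wild-type H3K4me3 and 13.3 in the knockout, and at the higher coordinate 7.86 in sham heart and 3.86 in IL-4 BMDM. Zfp950, a zinc finger gene, had folds of 11.7 and 15.8 in the H3K4me3 lists.

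Promoters with a peak held more CG than those without in 4 lists, at the ends as over all autosomes. Promoter sequences were matched for 57 of 72 pericentromeric and 105 of 133 subtelomeric genes by symbol. The medians below are over all promoter entries with a start in a window, 122 pericentromeric and 160 subtelomeric ones. These include genes outside the protein-coding set and several overlapping starts of the same gene, so entries are not independent. The searched motif was CG, which reads the same on both strands, and 94.8% of all 31396 autosomal promoters of 300 bases held it at least once, with a median of 7. Promoters with a start on the pericentromeric side that overlapped a peak had a median of 17 CG in MI heart, 18.5 in IL-4 BMDM, 16.5 in wild-type H3K4me3 and 17 in the knockout, against 5, 5, 3 and 3 in those without. In the subtelomeric window the medians were 21, 20.5, 19 and 19 with a peak and 3, 3, 2 and 2 without. Over all autosomal promoters they were 23, 22, 22 and 22 with and 4, 4, 4 and 3 without. In the other 2 lists few window promoters overlapped a peak. In sham heart 4 subtelomeric promoters with a peak had a median of 8 CG against 6.5 without, 2 pericentromeric ones 22.5 against 8, and over all autosomes the median was 7 in both classes. In untreated BMDM 1 promoter on each side had a peak, with 7 CG (subtelomeric, against 7 without) and 30 (pericentromeric, against 8), and over all autosomes the medians were 22 and 7. The 300-base promoters of Suv39h2, Cpt1a and Noc2l, with 33, 22 and 34 CG, were at percentiles 92.0, 77.9 and 92.8 of all promoters, and that of Ccr3, with 1, at 13.8.

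Of 18 microRNA genes in the windows, 6 lay within 1 kb of a peak in at least 1 list (33.3%, 13.3 to 59.0), against 46.4% of all 919 autosomal ones. Mir200a and Mir429, members of a family known for holding cells in an epithelial state, lay within 1 kb of a peak in MI heart NPM1 and wild-type H3K4me3, and Mir200b and Mir7006 in MI heart NPM1 alone. Mir7658 had such a peak in MI heart NPM1, IL-4 BMDM and the knockout, and Gm23450 in both H3K4me3 lists. The 8 genes of the Mir290 cluster on chromosome 7, which is expressed in embryonic stem cells, and Mir29b-2 and Mir29c on chromosome 1 had no such peak in any list.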

How the data were processed

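CUT&Tag libraries were made with a commercial transposase kit, per the labels' protocols. The submitters' processing notes name MACS2 2.2.7.1, Bowtie2, deepTools and bcl2fastq 2.17 and the mm10 build. No source used here gives their settings, the handling of duplicate or multiply mapped reads, or any control library or added standard. The authors deposited 1 narrowPeak list per library for 6 libraries, with a score, a fold enrichment (a ratio), a −log10 p and a −log10 q per peak, per the file columns. The deposited score was not used beyond checks. The lowest deposited −log10 p was 2.01.

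Positions are 1-based. Reads at a summit and the local background were computed as the whole-number pileup and background that return the deposited fold (each with 1 added) and −log10 p. The most frequent background was taken as genome-wide. The local background fell within 0.001 of a step of 0.02 in at least 53.1% of members per list and side. Some values would do so by chance. Reads of 200 bp counted over 10 kb would give such steps. Such a count holds the reads of the peak itself and limits the fold to 50. Since the settings are not known, this was not tested. Densities are peaks per Mb, and the ratio divides a window by the mean of chromosomes 1 to 19 from 3 Mb to the last peak end. Percentiles are within a list. Gene ends come from RefSeq (GRCm38.p6), with 1 kb on either side. The table gives no exons. Promoters are 250 bases before to 50 after a start.

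The members and lists were chosen with earlier results of these data known. Named regions are the 6 per side held by most lists, ties broken by the median fold percentile, and the highest fold of each list and side. Named genes have an end within 1 kb of such a region or are among the 4 highest −log10 q per list and side. Named chromosomes are the 3 highest and 3 lowest in count. Other genes were named by role after their values were seen. In simulated lists 380 of 380 pericentromeric members, 304 of 304 subtelomeric members, 950 of 950 shared peaks and 3000 of 3000 pileups were recovered. The simulated pileups did not cover folds as low as those near Sfi1 on chromosome 11, so recovery there was not tested. Alternatives were stricter q, equal list length, other windows, means, rankings and overlaps and, added after seeing the data, leaving out terminal peaks. Python 3.11.15, numpy 2.4.6, pandas 2.3.3, scipy 1.17.1 and matplotlib 3.10.9 were used.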

Additional observations from a re-analysis of the deposited data

How the results depend on the processing

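No paired analysis was possible because each group has 1 library, and no library could be left out of a group. Values here are medians over the 6 lists. The pericentromeric density ratio of 1.66 stayed above 1 under all 11 alternatives. It was 2.89 with −log10 q of 5 or more, 1.85 at equal list length, 1.92 in windows of 250 kb and 1.44 in windows of 1 Mb. The subtelomeric ratio of 1.15 became 1.67 at −log10 q from 5 up and 1.28 by bases covered, and fell below 1, to 0.977, as the median over chromosomes (MI heart NPM1 0.930, knockout 0.688). Without the fullest chromosome MI heart NPM1 was at 0.999. The pericentromeric fold percentile of 40.2 became 12.1 at −log10 q from 5 up and 35.5 in windows of 250 kb and turned to 61.4 when ranked by −log10 p (sham heart 66.5, untreated BMDM 56.9, IL-4 BMDM 56.3, knockout 58.5). The subtelomeric one of 58.3 became 70.1 and 63.8 under the first 2 of these. The share overlapping another list, 72.7% and 71.2% on the 2 sides, became 91.8% and 93.8% at −log10 q from 5 up, 78.0% and 77.1% in windows of 250 kb and 60.5% and 53.4% with reciprocal overlap of 50%. It was 78.0% on the pericentromeric side at equal list length and 65.5% on the subtelomeric side with summits within 250 bp. Depth limits all counts: a missing peak means that none was called.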
